A study of Oryza sativa Japonica Group with 6 samples.

Results

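The YABBY genes of rice, among them *DL* (*DROOPING LEAF*), were read together with *G1* in young panicles of 2 rice lines. The members were chosen by identifier as *DL* (LOC_Os03g11600), *OsYABBY1* (LOC_Os07g06620), *OsYABBY2* (LOC_Os03g44710), *OsYABBY3* (LOC_Os10g36420), *OsYABBY4* (LOC_Os02g42950), *TOB1*, also called *OsYABBY5* (LOC_Os04g45330), *OsYABBY6* (LOC_Os12g42610) and *G1* (LOC_Os07g04670). All 8 were among the 42189 genes listed, and 7 of them reached a mean of 1 TPM over the libraries and were tested, *G1* being the exception. Levels are in TPM, a length-corrected measure of a gene's part in all transcripts of its library, so different genes can be compared within a library. RNA-seq had been performed on panicles before heading of 187R, an *indica* restorer line with the *HFR131* allele, and of NIL-*hfr131*, with 3 libraries of each line under natural growth. NIL-*hfr131* is a near-isogenic line in the 187R background that carries *hfr131*, an allele of the brassinosteroid receptor gene *OsBRI1*, on a segment of chromosome 1 from the wild rice *Oryza longistaminata*. It is 1 introgression line, so *hfr131* and the other wild-rice alleles of its segment cannot be told apart. By their identifiers the 8 genes lie on chromosomes 2, 3, 4, 7, 10 and 12, and none lies on chromosome 1.

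YABBY proteins are plant transcription factors with a zinc finger and a YABBY domain that binds DNA, and they are known for their part in the polarity and outgrowth of leaves and floral organs. In rice, *DL* specifies the carpel and the thickened midrib of the leaf, and it belongs to the group named after *CRABS CLAW* of *Arabidopsis*. *OsYABBY1*, *OsYABBY2* and *OsYABBY6* form the YAB2 group, whereas *TOB1*, *OsYABBY3* and *OsYABBY4* form the group of *FILAMENTOUS FLOWER*. *G1* is not a YABBY gene but an ALOG gene, whose product keeps the sterile lemmas of the rice spikelet from becoming lemma-like. Brassinosteroids, the steroid hormones perceived by OsBRI1, act on grain length, plant height and leaf angle in rice.

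NIL-*hfr131* replicate 3 stood apart from the other libraries. Across tested genes its log2(TPM + 1) values had correlations of 0.916 to 0.937 with the other 5 libraries, which had correlations of 0.982 to 0.991 with one another. Its value lay outside the range of the other 5 libraries in 74.6% of all tested genes and in 5 of the 7 tested members, so comparisons are given with and without it. The labelled tissue was checked with 17 MADS-box genes of floral organ identity, all of which were tested, with a summed level of 2911 to 3195 TPM in 187R and 2968 to 3346 TPM in NIL-*hfr131*. The same sum over 8 anther wall and tapetum genes was 2224 to 2515 TPM in 187R and 2830 to 3543 TPM in NIL-*hfr131*, and without the lipid transfer protein gene *OsC6* it was 1810 to 2006 and 1620 to 2163 TPM. *OsC6* was the 1 gene of that list that passed the adjusted threshold, with a log2 fold change of 1.54 (adjusted p = 0.00695, limma), or 1.60 without NIL-*hfr131* replicate 3. Over 8 meiosis genes the sum was 58.4 to 61.6 TPM in 187R, and in NIL-*hfr131* it was 46.8, 46.5 and 77.1 TPM, the last in replicate 3. Over 5 leaf photosynthesis genes, of which 1 was listed at 0 in all libraries, it was 1271 to 1374 TPM in 187R and 822 to 1357 TPM in NIL-*hfr131*, or 83.4 to 93.5 and 87.0 to 133 TPM without the chlorophyll-binding protein gene *CAB2R*. The low end of the MADS-box, tapetum and leaf sums in NIL-*hfr131* was replicate 3 each time. Replicates 1 and 2 had MADS-box sums of 3293 and 3346 TPM. Their tapetum sums were 3543 and 3367 TPM, or 2163 and 1994 TPM without *OsC6*. Their leaf sums were 1357 and 1196 TPM, or 133 and 117 TPM without *CAB2R*. In the leaf list the Rubisco small subunit gene LOC_Os12g19470 has close copies that could share reads. Its log2 fold change was 1.61 (adjusted p = 0.0105, limma), or 1.70 without NIL-*hfr131* replicate 3. The part of these differences in the results on the members was not tested.

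None of the 7 tested members differed between the lines at an adjusted *P* under 0.05 (limma, two-sided), a threshold that 66 of 21531 tested genes (0.307%) passed. At an unadjusted *P* under 0.05, 2 of the 7 passed, *OsYABBY6* with a higher level and *OsYABBY3* with a lower level in NIL-*hfr131*, where 8.36% of all tested genes passed. The same 2 genes were the members whose libraries of 1 line all lay on 1 side of the other line, which held for 18.5% of all tested genes. Leaving out 187R replicate 2 or 187R replicate 3 left 0 members at an unadjusted *P* under 0.05. Each of these fits also left only 13 of all tested genes past the adjusted threshold. The share of all tested genes at an unadjusted *P* under 0.05 was not computed for them. In these fits the log2 fold change was 0.35 and 0.42 for *OsYABBY6*, and -0.50 and -0.42 for *OsYABBY3*. Over all libraries the fold changes of the 7 genes had a median of -0.04 on the log2 scale, beside 0.05 over all tested genes. The median of their absolute values was 0.28, beside 0.19. Fold changes were taken as NIL-*hfr131* minus 187R on the log2(TPM + 1) scale, which understates those of weakly expressed genes. A gene that missed the threshold is not shown to be unchanged, and the 95% intervals given with each gene show how large a difference the libraries allow. In whole panicles, a difference in the number of cells that express a gene and a difference in its RNA per cell cannot be told apart.

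Of the 8 genes, *OsYABBY1* had the highest level and *G1* the lowest in every library. In 187R the order of the mean levels was *OsYABBY1* at 222 TPM, *OsYABBY2* at 114 TPM, *OsYABBY6* at 80.4 TPM, *DL* at 76.8 TPM, *TOB1* at 36.9 TPM, *OsYABBY3* and *OsYABBY4* both at 19.8 TPM, and *G1* at 0.675 TPM. The ranges of *OsYABBY6* and *DL* overlapped in 187R, as did those of *OsYABBY3* and *OsYABBY4*, and the other neighbours in this order did not overlap there. In NIL-*hfr131* the ranges of *OsYABBY6* and *DL* did not overlap, those of *OsYABBY2* and *OsYABBY6* did, and those of *OsYABBY3* and *OsYABBY4* again did. *OsYABBY1* was above 96.5% and *OsYABBY3* above 59.6% of tested genes in mean level in 187R.

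**Figure D1:**
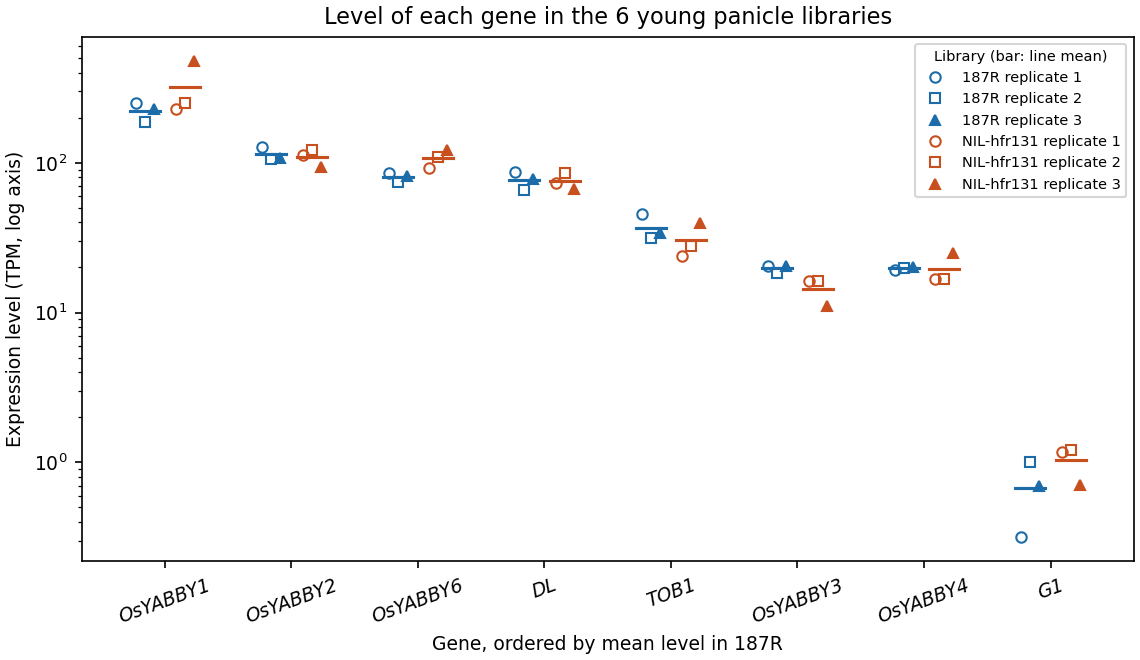
Level of the 8 genes in TPM on a log axis, with 1 point per library, 187R in blue, NIL-*hfr131* in orange, and a bar at the mean of each line. *OsYABBY1* is the highest gene in every library, reaching 481 TPM in NIL-*hfr131* replicate 3, and *G1* is near 1 TPM in both lines.

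*DL*, the carpel identity gene, had levels of 87.0, 65.5 and 77.8 TPM in replicates 1, 2 and 3 of 187R, and of 72.8, 85.4 and 67.3 TPM in those of NIL-*hfr131*. Libraries of the lines were interleaved, and the highest and the lowest value both belonged to 187R. The log2 fold change was -0.03 (standard error 0.15; 95% interval -0.38 to 0.33; adjusted p = 0.946, limma), which was within the spread between replicates. With NIL-*hfr131* replicate 3 left out it was 0.05 (95% interval -0.26 to 0.36), and in that library *DL* lay within the range of the other 5.

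In the YAB2 group, *OsYABBY1*, which has been tied to the feedback control of gibberellin synthesis in rice, was at 251, 186 and 228 TPM in 187R. NIL-*hfr131* had 228, 253 and 481 TPM of it in the same order of replicates. The first 2 of these lay close to the range of 187R, and replicate 3 was above all other libraries. The log2 fold change of *OsYABBY1* was 0.46 (standard error 0.29; 95% interval -0.22 to 1.14; adjusted p = 0.694, limma), and leaving out NIL-*hfr131* replicate 3 gave 0.12 (95% interval -0.19 to 0.44; adjusted p = 0.739). In NIL-*hfr131* replicate 3 the gene was 1.07 above the mean of the other 5 libraries on the log2 scale, a deviation that 11.2% of tested genes reached or passed in either direction in that library. The difference between the line means of *OsYABBY1*, 222 ± 32.9 against 321 ± 140 TPM (SD, n = 3 libraries per line), thus rested on 1 library.

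*OsYABBY2*, the rice copy of the *Shattering1* gene of cereals, was at 128, 107 and 108 TPM in 187R against 113, 122 and 93.5 TPM in NIL-*hfr131*. Its ranges overlapped, with the lowest value in NIL-*hfr131* replicate 3. Its log2 fold change was -0.06 (standard error 0.14; 95% interval -0.40 to 0.27; adjusted p = 0.850, limma), and 0.04 (95% interval -0.20 to 0.28) without that library.

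*OsYABBY6* was at 85.7, 74.1 and 81.5 TPM in 187R replicates 1, 2 and 3. The corresponding levels in NIL-*hfr131* were 92.8, 109 and 121 TPM. Every NIL-*hfr131* library was above every 187R library, also without replicate 3. The mean was 80.4 ± 5.85 TPM in 187R and 107 ± 14.1 TPM in NIL-*hfr131* (SD, n = 3), a ratio of 1.34. The log2 fold change was 0.41 (standard error 0.13; 95% interval 0.09 to 0.72), with an unadjusted p of 0.0187 and an adjusted p of 0.483 (limma). The interval over this gene alone did not hold 0, but the difference did not pass the correction for all genes tested. Over the 5 libraries without NIL-*hfr131* replicate 3 it came to 0.32 (standard error 0.10; adjusted p = 0.212). Leaving out each library in turn gave 0.32 to 0.51. An exact permutation test of 3 against 3 libraries gave p = 0.1 for *OsYABBY6*, which is the smallest value that it allows. Any gene whose lines do not overlap gets this value, so the test adds nothing to the lack of overlap.

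In the group of *FILAMENTOUS FLOWER*, *TOB1* keeps the spikelet meristem active and promotes growth of the lemma and palea. Its levels were 45.4, 31.6 and 33.8 TPM in replicates 1, 2 and 3 of 187R, and 23.9, 28.0 and 39.7 TPM in those of NIL-*hfr131*. NIL-*hfr131* replicates 1 and 2 were below all libraries of 187R, and replicate 3 lay among them. The log2 fold change of *TOB1* was -0.28 (standard error 0.22; 95% interval -0.81 to 0.25; adjusted p = 0.694, limma). With that library left out it was -0.48 (standard error 0.16; 95% interval -0.86 to -0.11), with an unadjusted p of 0.0190 and an adjusted p of 0.226. Of the tested members, *TOB1* then had the largest absolute log2 fold change. 187R replicate 1 had the highest level of *TOB1*, and the log2 fold change was -0.13 without it, and also -0.13 without NIL-*hfr131* replicate 1.

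*OsYABBY3* was at 20.5, 18.4 and 20.6 TPM in 187R against 16.2, 16.2 and 11.0 TPM in NIL-*hfr131*. All libraries of NIL-*hfr131* were below all libraries of 187R, and the lowest was replicate 3. Its mean was 19.8 ± 1.26 TPM in 187R and 14.4 ± 3.00 TPM in NIL-*hfr131* (SD, n = 3), a ratio of 0.729. The log2 fold change was -0.45 (standard error 0.18; 95% interval -0.86 to -0.03), with an unadjusted p of 0.0386 and an adjusted p of 0.566 (limma), so this difference did not pass the correction either. Without NIL-*hfr131* replicate 3 it was -0.28 (standard error 0.09), with an unadjusted p of 0.0199 and an adjusted p of 0.231. The exact permutation test gave p = 0.1 for *OsYABBY3* as well, again because its lines did not overlap.

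*OsYABBY4*, which has been tied to the development of vascular tissue in rice, was the most even of the members in 187R, at 19.3, 19.9 and 20.2 TPM. Its levels in NIL-*hfr131* were 16.9, 16.9 and 24.9 TPM. Replicates 1 and 2 were below all libraries of 187R and replicate 3 was above them, so that the line means of 19.8 ± 0.463 and 19.5 ± 4.63 TPM (SD, n = 3) nearly coincided. The log2 fold change was -0.04 (standard error 0.17; 95% interval -0.45 to 0.37; adjusted p = 0.929, limma), and leaving out NIL-*hfr131* replicate 3 gave -0.22 (standard error 0.08; unadjusted p = 0.0329; adjusted p = 0.281).

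*G1* was weakly expressed, with 0.316, 1.01 and 0.698 TPM in 187R and 1.18, 1.21 and 0.702 TPM in NIL-*hfr131*. Its ranges overlapped through NIL-*hfr131* replicate 3. With no filter on low values, over 30519 genes, the log2 fold change of *G1* was 0.29 (standard error 0.19; 95% interval -0.17 to 0.75; adjusted p = 0.738, limma), and leaving out NIL-*hfr131* replicate 3 gave 0.41 (adjusted p = 0.439). The added 1 TPM is of the size of these values, so the fold change is compressed, and with a pseudocount of 0.1 it was 0.62. The counting error at this level is unknown, since TPM keeps no sequencing depth.

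**Figure D2:**
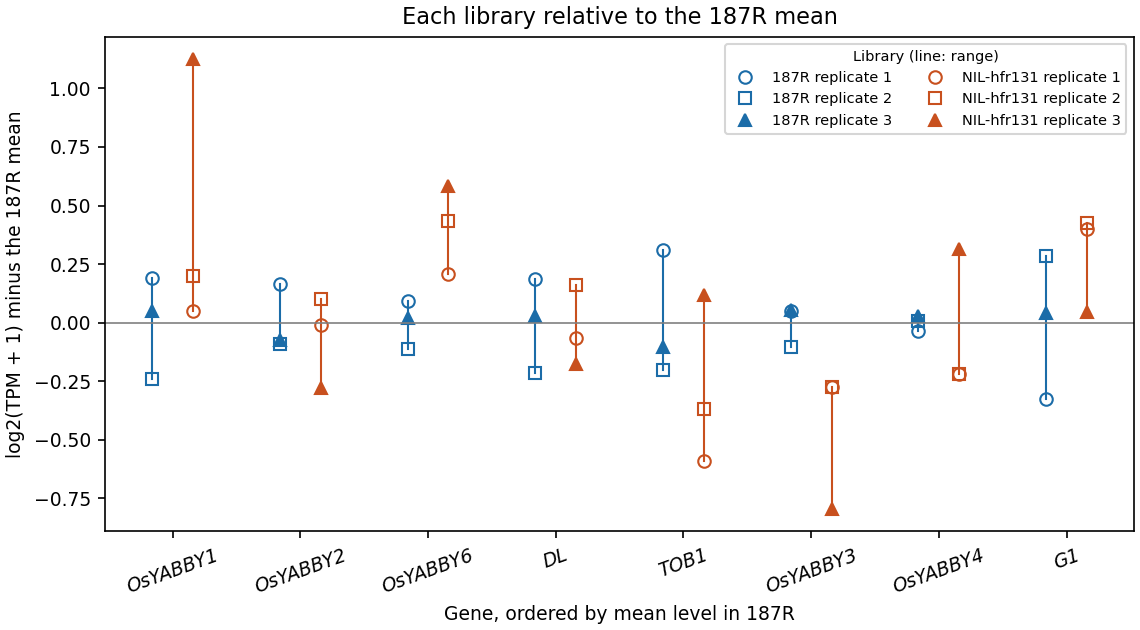
Each library's log2(TPM + 1) minus the mean of 187R, with 187R in blue, NIL-*hfr131* in orange and a line over the range of each line. *OsYABBY6* is above and *OsYABBY3* below the whole range of 187R in all 3 NIL-*hfr131* libraries, and NIL-*hfr131* replicate 3 (filled orange triangle) is above both other NIL-*hfr131* libraries in *OsYABBY1*, *OsYABBY4*, *TOB1* and *OsYABBY6* and below both in *DL*, *OsYABBY2*, *OsYABBY3* and *G1*.

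The family was also counted without NIL-*hfr131* replicate 3. Again none of the 7 tested members passed the adjusted threshold (limma), which 1.8% of 21276 tested genes then passed. At an unadjusted *P* under 0.05, 4 of the 7 passed, where 14.8% of all tested genes did. These were *OsYABBY6* with a higher level and *OsYABBY3*, *OsYABBY4* and *TOB1*, the 3 members of the group of *FILAMENTOUS FLOWER*, with a lower level in NIL-*hfr131*. The same 4 genes had no overlap between the lines, which held for 32.6% of all tested genes with 2 against 3 libraries. *G1*, which was not among the tested genes, had no overlap either in these libraries. The log2 fold changes of *DL*, *OsYABBY1* and *OsYABBY2* in the same fit were 0.04 to 0.12.

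**Figure D3:**
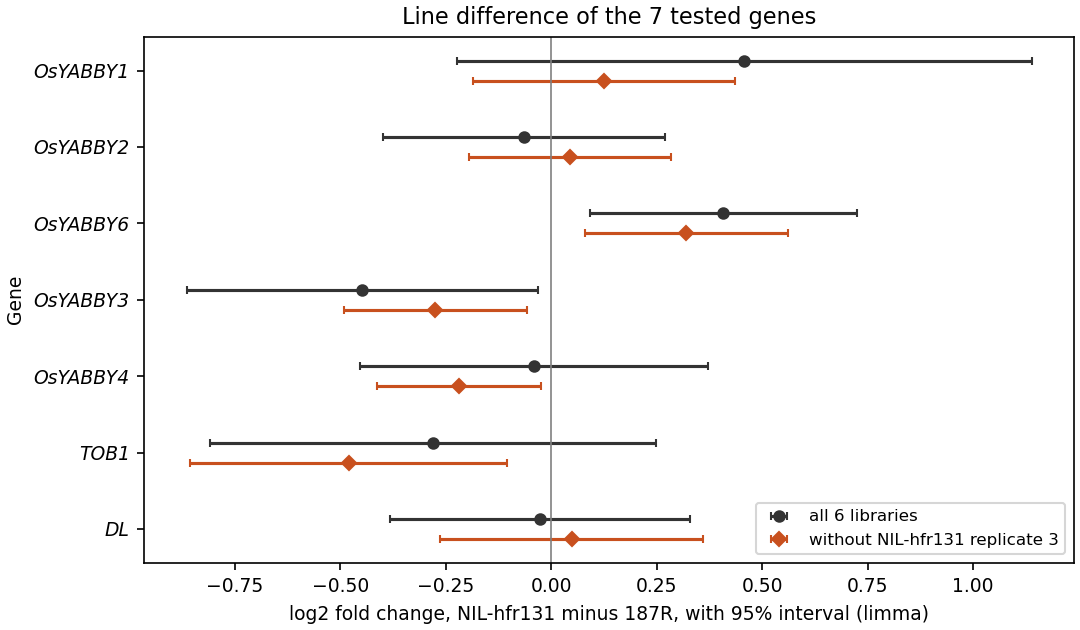
Log2 fold change (NIL-*hfr131* minus 187R) of the 7 tested members with its 95% interval from limma, over all 6 libraries (dark circles) and without NIL-*hfr131* replicate 3 (orange diamonds). The intervals are not corrected for the number of genes. With all libraries those of *OsYABBY6* and *OsYABBY3* do not hold 0, and without that replicate those of *OsYABBY4* and *TOB1* do not either.

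The make-up of YABBY transcripts was compared within libraries. Shares and ratios do not depend on the scaling between libraries, whereas the summed TPM does. *DL* and the 6 other YABBY genes summed to 637, 503 and 570 TPM in 187R and to 564, 630 and 838 TPM in replicates 1, 2 and 3 of NIL-*hfr131*. *OsYABBY1* gave 37.1% to 40.0% of this sum in 187R, 40.5% and 40.1% in NIL-*hfr131* replicates 1 and 2, and 57.4% in replicate 3. Without *OsYABBY1* the sum was 316 to 385 TPM in 187R and 335 to 377 TPM in NIL-*hfr131*, so the high sum of NIL-*hfr131* replicate 3 came from that gene.

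The share of *OsYABBY6* was 13.5% to 14.8% in 187R and 16.5%, 17.3% and 14.4% in NIL-*hfr131* replicates 1, 2 and 3, whereas that of *TOB1* was 5.94% to 7.13% in 187R and 4.23% to 4.73% in NIL-*hfr131*. The shares of *TOB1* therefore did not overlap between the lines, although its TPM values did. In NIL-*hfr131* replicate 3 its share of 4.73% rested on the 57.4% taken by *OsYABBY1*. Beside the sum without *OsYABBY1*, *TOB1* had 39.7 of 357 TPM in that library and 33.8 of 342 TPM in 187R replicate 3. Against that sum the lines overlapped. The ratio of *OsYABBY6* to *OsYABBY2*, members of the same group, was 0.672, 0.695 and 0.754 in 187R and 0.823, 0.892 and 1.29 in NIL-*hfr131*. *OsYABBY6* ranked above *OsYABBY2* in NIL-*hfr131* replicate 3 and in no other library. The ratio of *OsYABBY6* to *DL* was 0.986 to 1.13 in 187R and 1.27, 1.27 and 1.80 in NIL-*hfr131*. *OsYABBY4* and *OsYABBY3* stood at a ratio of 0.941 to 1.08 in 187R and of 1.04, 1.04 and 2.26 in NIL-*hfr131*, so that their near-equal levels were parted in replicate 3 alone. These shares and ratios were looked at after the values of the genes were known and are given as a description.

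**Figure D4:**
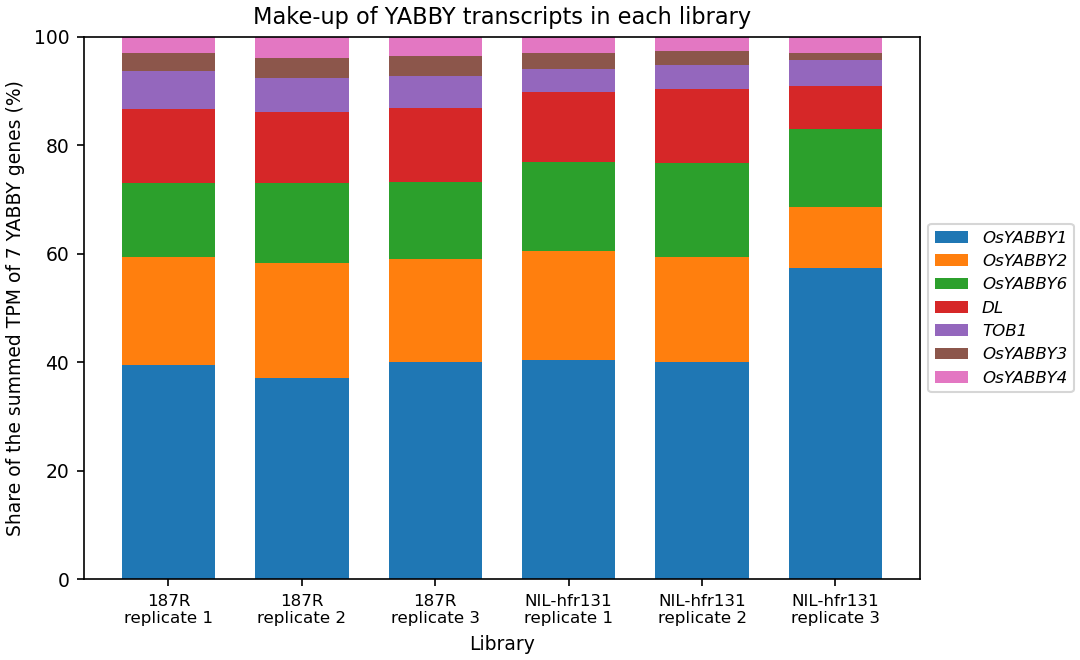
Share of each YABBY gene, in percent, of the summed TPM of *DL* and the 6 other YABBY genes, with 1 stacked bar per library. *OsYABBY1* takes 37.1% to 40.5% in 5 libraries and 57.4% in NIL-*hfr131* replicate 3, and *TOB1* takes 5.94% to 7.13% in 187R and 4.23% to 4.73% in NIL-*hfr131*. In NIL-*hfr131* replicate 3 the share of *TOB1* is lowered by the high level of *OsYABBY1*.

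The MADS-box genes of floral organ identity act in the same organs as the YABBY genes, and *DL* and the B-class gene *OsMADS16* (*SPW1*) are known to oppose each other in the carpel and stamen whorls of rice. The identifiers of the MADS-box genes were taken from general knowledge of rice loci, as were those of the tapetum, meiosis and leaf lists. Neither the deposited values nor the RefSeq table pairs these identifiers with names. None of the 17 passed the adjusted threshold (limma), and 2 of 17, *OsMADS13* and *OsMADS34*, passed at an unadjusted *P* under 0.05 with lower levels in NIL-*hfr131*, where 8.36% of all tested genes passed. Without NIL-*hfr131* replicate 3 again none passed the adjusted threshold, and 3 with higher and 2 with lower levels passed at an unadjusted *P* under 0.05, beside 14.8% of all tested genes. The libraries of the lines did not overlap in 1 MADS-box gene with higher and 3 with lower levels, beside 18.5% of all tested genes, and in 6 and 3 without that replicate, beside 32.6%. Over all libraries the median log2 fold change of the 17 was 0.01 and the median of the absolute values was 0.19, as over all tested genes, beside 0.28 for the tested members. The 3 with the largest absolute log2 fold changes are described.

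*OsMADS13* (LOC_Os12g10540), a gene of ovule identity, was at 23.5, 25.3 and 26.6 TPM in 187R and 14.4, 19.0 and 19.0 TPM in NIL-*hfr131* (log2 fold change -0.51, adjusted p = 0.404), and without replicate 3 of NIL-*hfr131* the fold change was -0.57 (adjusted p = 0.0871). *OsMADS34* (LOC_Os03g54170), which acts in the identity of the inflorescence and spikelet meristems, was at 72.2, 75.1 and 73.5 TPM in 187R and 64.5, 60.5 and 48.2 TPM in NIL-*hfr131* (log2 fold change -0.35, adjusted p = 0.554), and without replicate 3 the fold change was -0.23 (adjusted p = 0.218). These 2 genes were among the 3 with lower levels and no overlap. *OsMADS16* (LOC_Os06g49840) was at 518, 490 and 725 TPM in 187R and 790, 780 and 617 TPM in NIL-*hfr131* (log2 fold change 0.35, adjusted p = 0.684). Its ranges overlapped through NIL-*hfr131* replicate 3, and without that library they did not, with a log2 fold change of 0.46 (95% interval 0.07 to 0.86; unadjusted p = 0.0264; adjusted p = 0.258, limma). *DL*, its counterpart, had a log2 fold change of -0.03 over all libraries and of 0.05 without that one.

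**Figure D5:**
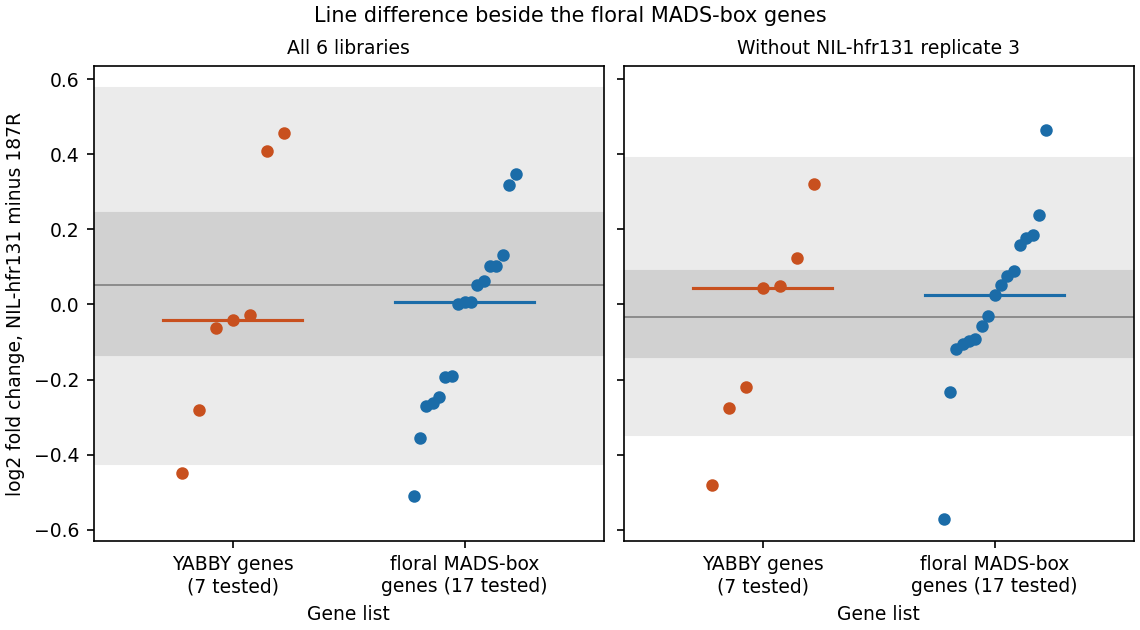
Log2 fold change of the 7 tested YABBY genes (orange) and the 17 floral MADS-box genes (blue), with a bar at each list's median, over all 6 libraries (left) and without NIL-*hfr131* replicate 3 (right). The pale band spans the 5th to the 95th percentile of all tested genes, the darker band the 25th to the 75th, and the grey line is their median. Over all libraries the members range from -0.45 to 0.46 and the MADS-box genes from -0.51 to 0.35.

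For each tested member, the non-member gene with the highest Pearson correlation of log2(TPM + 1) over the 6 libraries was found. With 21531 genes and 6 libraries of 2 lines, of which 1 stands apart, correlations near 1 arise for any gene, so they describe likeness only. They were 0.993 to 0.999 for the 7 tested members. The gene most like *DL* was LOC_Os02g58010 (0.997), and 34 genes had a correlation over 0.95 with *DL*. For *OsYABBY1* it was LOC_Os02g56910 (0.999), and 1937 genes were over 0.95, the most of any member. *OsYABBY3* was most like LOC_Os11g02520 (0.999) and *OsYABBY6* most like LOC_Os01g42970 (0.997). By its identifier LOC_Os01g42970 lies on chromosome 1, the chromosome of the wild-rice segment, and whether it is within that segment was not tested. The most similar gene was LOC_Os08g25570 (0.993) for *TOB1*, LOC_Os02g14890 (0.994) for *OsYABBY2* and LOC_Os06g04710 (0.997) for *OsYABBY4*. Over the 5 libraries without NIL-*hfr131* replicate 3 these 7 correlations were 0.993 to 0.996.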

How the data were processed

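Messenger RNA of young panicles was measured in 3 libraries of 187R and 3 of NIL-*hfr131*. The labels name 187R for all libraries, followed by WT or mutant and a replicate number. The mutant libraries were taken as NIL-*hfr131*, the line whose young panicles the authors compared with those of 187R. The authors sequenced the libraries on an MGISEQ-2000 platform and deposited TPM values per gene. The aligner, genome build, annotation and read filters are not given in the sources used here, and the methods name FPKM. Each column summed to 1000000, so the values were used as TPM. They keep no depth, and error was read from the spread between replicates.

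Genes with a mean of at least 1 TPM were compared on the log2(TPM + 1) scale with limma 3.58.1 in R 4.3.3, with the line as the only term and a prior variance that followed the mean level. *P* values were two-sided and adjusted after Benjamini and Hochberg over all genes tested, with a threshold of 0.05. Values were summarised with pandas 2.3.3 and plotted with matplotlib 3.10.9. A replicate is a separate plant sample only as far as the labels call it a biological replicate.

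The text names all 8 members, the 1 gene most like each tested member, the genes of the 4 fixed lists that passed the adjusted threshold, and the 3 floral MADS-box genes with the largest absolute fold changes. The members and lists were chosen with earlier results of these data known. The RefSeq table used (assembly ASM3414082v1) held 0 of the 42189 identifiers, so no positions are given. By name, all 8 members were found in its synonyms on the chromosome that their identifiers carry, as were 16 of the 17 MADS-box genes, 7 of 8 tapetum, 6 of 8 meiosis and 4 of 5 leaf genes. The table also holds *OsYABBY7*, which is not a member and was not analysed here. Reads shared between close copies were not analysed here. Alternatives changed the scaling (quantile normalization or median-of-ratios factors), the filter (none, or a mean of 5 TPM), the pseudocount (0.1), the prior (constant), the model (replicate number as a block) or the libraries (1 left out at a time). The fits of *G1* without a filter and the marker sums without *OsC6* or *CAB2R* were chosen after seeing the data.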

Additional observations from a re-analysis of the deposited data

How the results depend on the processing

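None of the members passed an adjusted *P* of 0.05 under any alternative run. The number of members at an unadjusted *P* under 0.05 was 2, beside 8.36% of all tested genes. It was 1 with median-of-ratios factors, 1 with quantile normalization and 1 with the replicate block. With 1 library left out at a time it was 0 to 4, with 0 without 187R replicate 2 or 187R replicate 3. The 4 were without NIL-*hfr131* replicate 3, beside 14.8% of all tested genes. For the other alternatives the share of all tested genes was not computed, so these counts are not a result about the members. Of the 7 tested members, 2 had no overlap between the lines, beside 18.5% of all tested genes. Without NIL-*hfr131* replicate 3 this held for 4, beside 32.6% of all tested genes, and *G1* had no overlap there either. Over all tested genes, 66 passed the adjusted threshold, 16 with the replicate block, and 13 to 384 with 1 library left out, where 384 was without NIL-*hfr131* replicate 3. The fold changes of *OsYABBY1*, *OsYABBY3*, *OsYABBY6*, *TOB1* and *G1* kept their sign under every alternative run. With 1 library left out, that of *DL* ranged from -0.14 to 0.067, that of *OsYABBY2* from -0.15 to 0.044 and that of *OsYABBY4* from -0.22 to 0.049, so their direction is not fixed by these libraries, and the cause was not tested. Same-numbered libraries of the lines did not deviate together (correlations of -0.21, 0.06 and 0.09 across genes), so the block pairs libraries by number alone. Neither scaling moved the median of all genes by over 0.1. TPM gives no depth, so what depth limits could not be computed; *G1*, near 1 TPM, is the least certain of the members.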
